A study of Saccharomyces cerevisiae with 12 samples.

Results

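The 34 genes described here encode the 26S proteasome of budding yeast with its assembly and transcription factors. They were taken by systematic name: the 14 subunits of the 20S core particle, 18 subunits of the 19S regulatory particle, the assembly chaperone UMP1 and the transcription factor RPN4. They are 34 of the 7126 genes in the expression table, and all 34 were among the 6572 genes that passed a filter on low values (a mean over the libraries of at least 1 FPKM, a level normalised to transcript length and to the number of mapped fragments). The question was how the RNA of these genes stood in cells that lack the SUMO protease Ulp2, in which transcripts from chromosomes I and XII were at raised levels early after the loss.

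RNA was sequenced from 12 cultures of Saccharomyces cerevisiae strain MHY1379, whose chromosomal ULP2 gene is deleted in every culture. The ulp2 null cells held the empty plasmid YCplac33, and the WT cells held YCplac33-ULP2, so that WT means a deletion rescued by ULP2 on a plasmid. The ulp2 null cells had lost a ULP2 plasmid on selective plates, and the steps of strain making took about 50 generations (50G). Whether the WT cells of these libraries carried the plasmid throughout or regained it is not settled by the sources used here. The 500G cells were in addition passaged by repeated growth to saturation and dilution in YPD, a rich medium, to 500 generations, and RNA came from mid-exponential cultures. The 4 groups, ulp2 null 500G, ulp2 null 50G, WT 500G and WT 50G, had 3 replicates each. The sources used here do not say whether replicates were separate evolved lines, so p-values measure the spread between these samples, and a change particular to 1 line cannot be told apart from a change with passage. In bulk RNA a change in every cell and a change in the share of cells that express a gene cannot be told apart either.

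The proteasome degrades proteins that carry ubiquitin chains. Its core is a barrel of stacked rings, the outer ones of alpha subunits that gate the entrance and the inner ones of beta subunits, some of which cut peptide bonds. The regulatory particle has a base, with a ring of ATPases that unfolds the substrate, and a lid that removes ubiquitin. Rpn4 is a short-lived activator that is itself degraded by the proteasome, and it binds the proteasome-associated control element, PACE, upstream of the subunit genes, so that a loss of proteasome activity is known to raise the transcription of its own genes.

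The members fall into roles. The alpha ring is encoded by SCL1 (YGL011C), PRE8 (YML092C), PRE9 (YGR135W), PRE6 (YOL038W), PUP2 (YGR253C), PRE5 (YMR314W) and PRE10 (YOR362C). The beta subunits that cut are those of PRE3 (YJL001W), PUP1 (YOR157C) and PRE2 (YPR103W), and the beta subunits without an active site are those of PUP3 (YER094C), PRE1 (YER012W), PRE7 (YBL041W) and PRE4 (YFR050C). The ATPase ring is encoded by RPT1 (YKL145W), RPT2 (YDL007W), RPT3 (YDR394W), RPT4 (YOR259C), RPT5 (YOR117W) and RPT6 (YGL048C). The other base genes are RPN1 (YHR027C) and RPN2 (YIL075C) for the large scaffolds, and RPN10 (YHR200W) and RPN13 (YLR421C) for ubiquitin receptors. The lid has RPN11 (YFR004W) for its deubiquitinating enzyme and RPN3 (YER021W), RPN5 (YDL147W), RPN6 (YDL097C), RPN7 (YPR108W), RPN8 (YOR261C), RPN9 (YDR427W) and RPN12 (YFR052W) for its frame, while UMP1 (YBR173C) and RPN4 (YDL020C) are not subunits.

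The promoters were searched for PACE because it is what the subunit genes are known to share. The 9 letters GGTGGCAAA, searched on both strands from 250 bases before to 50 bases after the start codon in the RefSeq R64 genome, were present in 27 of the 34 genes (79.4%), against 72 of 6001 promoters of protein-coding genes (1.2%). The looser NGTGGCAAA, which includes every GGTGGCAAA match, was present in 30 of 34 (88.2%), against 143 of 6001 (2.38%). The stretches below are shown for genes whose RNA levels are described in full further on, and the capitals mark the match. RPN1, PRE7, RPN11, PRE3 and RPN6 have GGTGGCAAA on the sense strand, RPN7 and RPT1 have it on the antisense strand, and RPN8 has a match to NGTGGCAAA only. Each is written 5′ to 3′ on the strand of the match.
RPN1: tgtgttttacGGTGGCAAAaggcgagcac
PRE7: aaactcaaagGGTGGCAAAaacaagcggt
RPN11: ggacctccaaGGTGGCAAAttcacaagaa
PRE3: aacggaatccGGTGGCAAAaaagggaaaa
RPN6: tggttccaagGGTGGCAAAtgttggtaga
RPN7: atcctcaatgGGTGGCAAActtaacttat
RPT1: ttagttttcgGGTGGCAAAattcggtaat
RPN8: gggatacctcAGTGGCAAAtcgttactca
In R64 the matches lie at chrVIII:164848-164856 for RPN1, chrII:141160-141168 for PRE7, chrVI:153269-153277 for RPN11, chrX:435045-435053 for PRE3, chrIV:286800-286808 for RPN6, chrXVI:742300-742308 for RPN7, chrXI:174058-174066 for RPT1 and chrXV:817095-817103 for RPN8.

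The match sat at a like place in most of these promoters. Its base nearest to the gene lay 76 to 175 bases before the start codon (median 112), and 19 of the 27 matches were on the sense strand and 8 on the antisense strand. By role, 6 of 6 ATPase genes, 7 of 8 lid genes, 6 of 7 alpha genes and 6 of 7 beta genes had GGTGGCAAA. PRE5, PUP1 and RPN8 had a match to the looser motif alone, and RPN10, RPN13, UMP1 and RPN4 had neither in this window. Of the other lists described below, 1 of 17 assembly and associated genes, 3 of 25 ubiquitin genes and 0 of 21 chaperone genes had GGTGGCAAA. A match here is a run of letters and says nothing on whether Rpn4 was bound.

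The libraries carried their labels: ULP2 was at 0.0543, 0.412 and 0.995 FPKM in ulp2 null 500G and 0.0926, 0 and 0.118 FPKM in ulp2 null 50G cells, against 162, 174.5 and 202 FPKM in WT 500G and 206, 217 and 207 FPKM in WT 50G cells. Between the ulp2 null and WT cells at 50G the median log2 fold change was 0.58 for 95 tested genes of chromosome I and 0.68 for 511 of chromosome XII, and at 500G it was -0.06 and 0.02. Genes of ribosomal proteins took 15.8 to 16.9% of all FPKM in ulp2 null 500G and 20.7 to 21.9% in ulp2 null 50G libraries, against 12.6 to 13.9% in WT 500G and 13.5 to 14.1% in WT 50G libraries. The sum itself was larger at 500G, 1365930 to 1539386 FPKM, than at 50G, 1083961 to 1198357 FPKM, while the median gene stood at 36.5 to 38.6 FPKM at 500G and 39.4 to 41.9 FPKM at 50G. The deposited values were therefore also scaled so that all genes but those of ribosomal proteins had the same total in each library, and the counts and medians under this equal-sum scaling are given for the 34 genes beside each comparison of 2 groups. No fragment counts were used, so the depth of each library is unknown.

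The proteasome genes were among the more abundant transcripts and close to each other in level. Over the 32 subunit genes the group mean ran from 123 FPKM for RPN7 to 533 FPKM for RPN8 in ulp2 null 500G cells and from 92.4 FPKM for RPN7 to 449 FPKM for RPN13 in ulp2 null 50G cells. In WT 500G cells it ran from 118 FPKM for RPN7 to 551 FPKM for RPN8, and in WT 50G cells from 109 FPKM for RPN7 to 342 FPKM for RPN8, a ratio of 3.13. RPN7, which encodes a structural subunit of the lid, was thus the lowest subunit gene in each group. The median subunit gene stood above 87.3 to 88.8% of the tested genes in ulp2 null cells and above 88.7 to 89% in WT cells. No member overlaps another gene of the RefSeq R64 annotation. The 1047 genes of the expression table without a match in RefSeq were not checked for overlap.

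**Figure D1:**
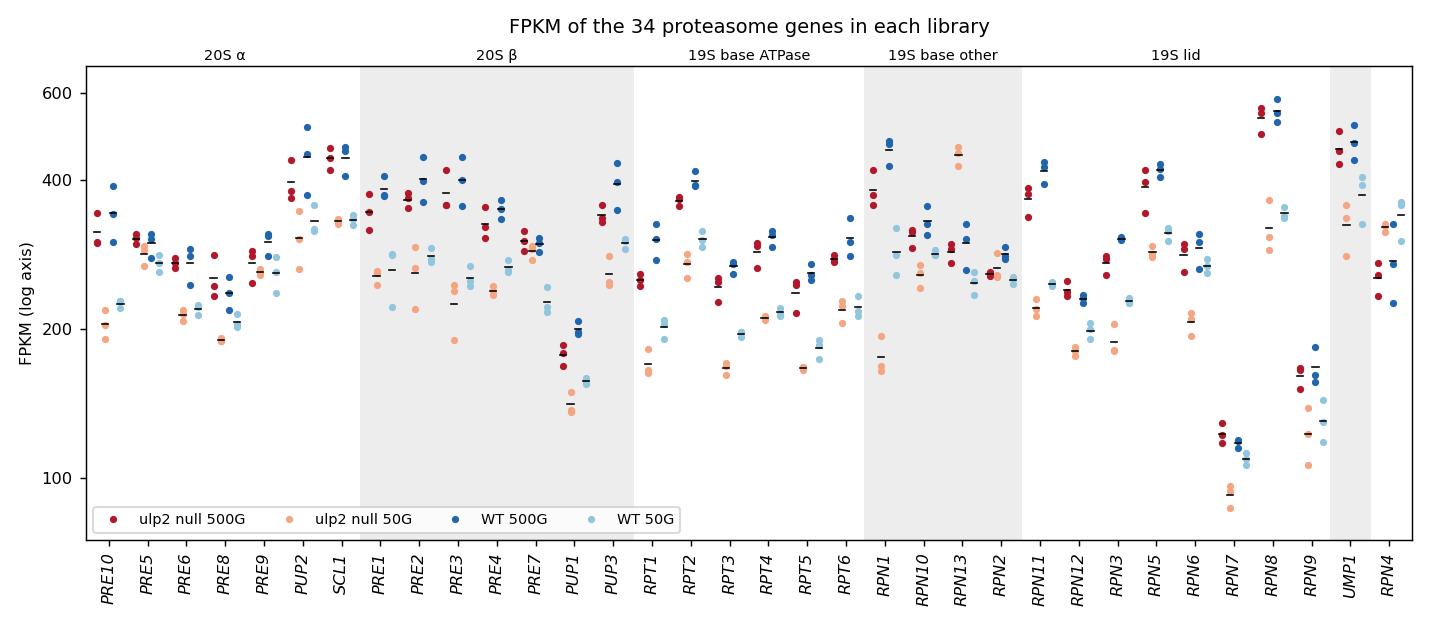
FPKM on a log axis of each of the 34 proteasome genes, grouped by role, with 1 point for each of the 12 libraries and a short line at the group mean. Points of the 500G libraries lie above those of the 50G libraries for most genes, RPN13 is highest in ulp2 null 50G cells, RPN1 is lowest there, and RPN4 is lower at 500G.

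In ulp2 null 50G cells the proteasome genes as a group were not raised against WT 50G cells. Of the 34 genes 2 were higher and 6 were lower at an adjusted p under 0.05 (limma on log2(FPKM + 1), Benjamini-Hochberg over 6572 genes), where 18.7% of all tested genes were higher and 18.1% lower (36.9% in either direction). The 2 that rose were RPN13 and PRE7, and the 6 that fell were RPN1, RPN6, RPN3, RPN7, RPT1 and RPT3, all of the regulatory particle. The median log2 fold change was -0.13 over the 34 genes and -0.02 over all tested genes, and 29 of 34 estimates were below 0. In 18 of 34 genes every ulp2 null library was below every WT library, as in 26.4% of all tested genes, and in 2 every one was above, as in 26.2%. With the equal-sum scaling 4 genes rose and 1 fell, the median of the 34 was -0.01 and that of all genes 0.10, and 8 genes, none of them called, changed sign. Without a filter on low values and with a median-of-ratios scaling 9 genes were lower in place of 6. With replicate number as a block in the fit 12 were lower and 2 higher.

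RPN13, which encodes a ubiquitin receptor of the base, rose most. It was at 454, 466.5 and 427 FPKM in ulp2 null 50G cells, against 260.5, 234 and 249.7 FPKM in WT 50G cells. Every ulp2 null library was above every WT library, and the log2 fold change was 0.85 ± 0.085 (SE, n = 3 each, limma adjusted p = 2.25e-05). RPN13 (chrXII:965090-965560) is the only member on chromosome XII, and no member is on chromosome I. Its change lay within the interquartile range of the tested chromosome XII genes, 0.49 to 0.94 (median 0.68), of which 425 of 511 were higher and 10 lower. PRE7, which encodes a beta subunit, lies on chromosome II (chrII:141247-141972) and was at 291, 294 and 276 FPKM in ulp2 null 50G cells, against 216, 221 and 243 FPKM in WT 50G cells. The groups did not overlap, and the log2 fold change was 0.34 ± 0.066 (limma adjusted p = 0.00203).

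RPN1 fell most. Rpn1 is a large scaffold of the base that docks shuttle proteins with ubiquitinated cargo. The gene (chrVIII:161730-164711) was at 193, 164 and 168 FPKM in ulp2 null 50G cells, against 319, 282 and 257 FPKM in WT 50G cells. All ulp2 null libraries were below all WT libraries, and the log2 fold change was -0.70 ± 0.1 (limma adjusted p = 0.00028). RPN2, which encodes the other large scaffold of the base, did not pass the test, at 285, 256.5 and 254 FPKM in ulp2 null 50G against 252, 247 and 255 FPKM in WT 50G cells. RPN10, which like RPN13 encodes a ubiquitin receptor, had 242, 259 and 269 FPKM in ulp2 null 50G and 282, 281.5 and 288 FPKM in WT 50G cells. The groups did not overlap, and RPN10 did not pass either (log2 fold change -0.14, limma adjusted p = 0.13).

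In the lid, 3 of 8 genes fell, where 18.1% of all tested genes were lower. RPN6, whose product clamps the lid to the core, was at 193.5, 209 and 216 FPKM in ulp2 null 50G cells, against 259, 276.5 and 268 FPKM in WT 50G cells (log2 fold change -0.38 ± 0.08, limma adjusted p = 0.00373). RPN3 was at 205, 180.1 and 181 FPKM in ulp2 null 50G and 230.5, 226 and 226 FPKM in WT 50G cells (-0.27 ± 0.064, 0.00684). RPN7 was at 96.1, 87.0 and 94.0 FPKM in ulp2 null 50G and 112, 106 and 109 FPKM in WT 50G cells (-0.24 ± 0.061, 0.00957). In these 3 genes the groups did not overlap. The other 5 lid genes, RPN5, RPN8, RPN9, RPN12 and RPN11, the last of which encodes the deubiquitinating enzyme of the lid, had log2 fold changes of -0.16 to -0.09 and did not pass.

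Of the 6 ATPase genes 2 fell, where 18.1% of all tested genes were lower and 18.7% higher. RPT3 was at 162, 168 and 171 FPKM in ulp2 null 50G cells, against 193, 197 and 197 FPKM in WT 50G cells, without overlap (-0.23 ± 0.06, limma adjusted p = 0.0118). RPT1 was at 182, 165 and 163 FPKM in ulp2 null 50G and 191, 209 and 204 FPKM in WT 50G cells, also without overlap (-0.24 ± 0.076, limma adjusted p = 0.029). The RPT1 call was lost without WT 50G replicate 2 or 3 or ulp2 null 50G replicate 2 or 3, with an adjusted p of 0.0959, 0.0794, 0.0856 and 0.0939, while the other 7 calls held without any 1 of the 12 libraries. Of the 14 core genes PRE7 alone passed, and the other 13 had log2 fold changes between -0.21 for PUP3 and 0.06 for PRE5. Under the equal-sum scaling the falls of RPN6, RPN3, RPN7, RPT1 and RPT3 no longer passed, and RPN1, RPN13 and PRE7 still did.

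RPN4 and UMP1 did not pass at 50G. RPN4 (chrIV:415113-416708) was at 313, 326 and 323 FPKM in ulp2 null 50G cells, against 301, 360.5 and 356 FPKM in WT 50G cells. The libraries overlapped, and the log2 fold change was -0.07 ± 0.12 (limma adjusted p = 0.686, 0.403 to 0.91 over the alternatives). UMP1, whose product is enclosed in the maturing core and then degraded there, was at 281, 334 and 355 FPKM in ulp2 null 50G and 325, 391 and 405 FPKM in WT 50G cells, which overlapped as well (-0.21 ± 0.11, limma adjusted p = 0.183, 0.00824 to 0.679 over the alternatives). The 0.00824 came from the limma fit with a replicate block, in which UMP1 passed as lower. Each ulp2 null library was below the WT library of the same number.

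Summed over the 32 subunit genes, the level was 7148, 7410 and 7687 FPKM in ulp2 null 50G libraries, against 7768, 7822 and 7844 FPKM in WT 50G libraries. The sums did not overlap, but the gap between the highest ulp2 null and the lowest WT library was small beside the spread among the ulp2 null libraries. The 14 core genes summed to 3450 ± 155 FPKM in ulp2 null 50G and 3589 ± 40 FPKM in WT 50G cells (SD, n = 3 each), and the 18 regulatory particle genes to 3965 ± 115 FPKM in ulp2 null 50G and 4223 ± 64 FPKM in WT 50G cells.

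**Figure D2:**
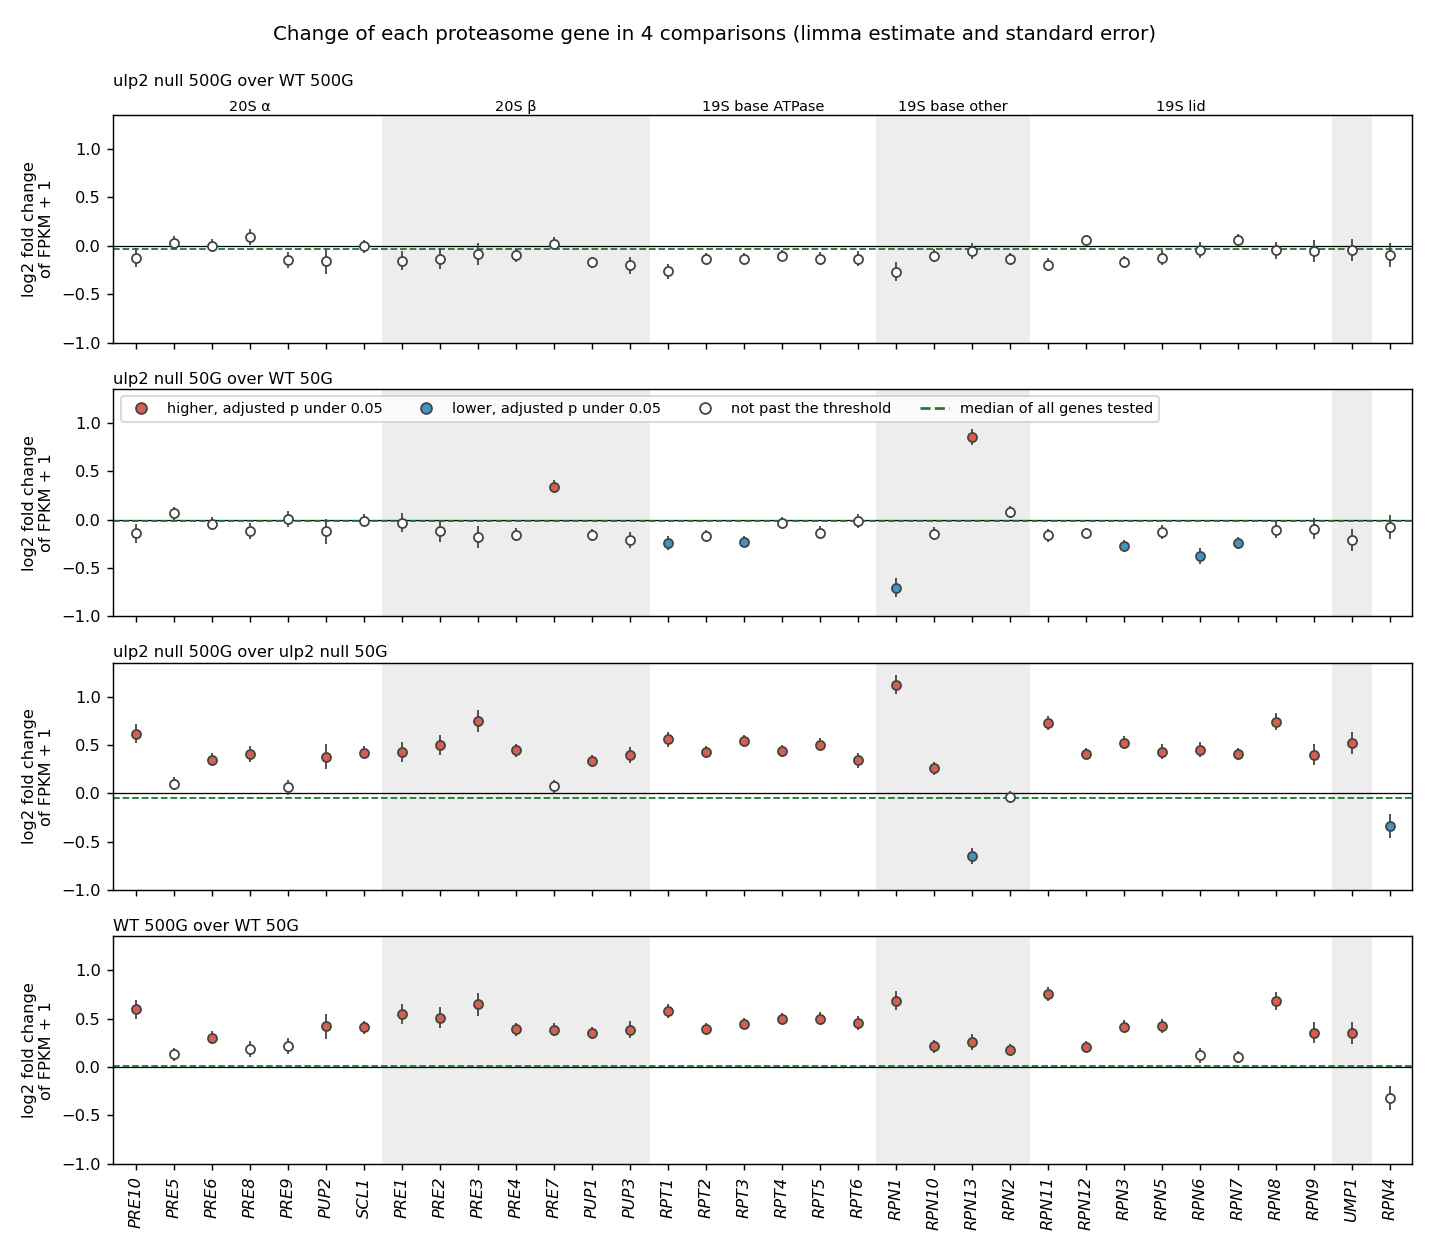
Log2 fold change of FPKM + 1 with its standard error for each of the 34 genes in 4 comparisons, from the limma fit; filled points passed an adjusted p of 0.05 and the dashed line is the median of all genes tested. At 500G no gene passed between ulp2 null and WT cells, at 50G 2 rose and 6 fell, and within each strain 28 genes were higher at 500G than at 50G.

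After 500 generations no proteasome gene passed the test between ulp2 null and WT cells. With limma 0 of 34 were higher and 0 lower, where 4.9% of all tested genes were higher and 6.06% lower, and at an unadjusted p under 0.05 0 of 34 were higher and 8 lower. The median log2 fold change was -0.11, against -0.03 over all tested genes, and single genes lay between -0.27 for RPN1 and 0.09 for PRE8. In 9 of 34 genes every ulp2 null 500G library was below every WT 500G library, as in 16.1% of all tested genes, and in 0 every one was above, as in 11.2%. RPT1 came nearest to the threshold, at 259, 244 and 251 FPKM in ulp2 null 500G and 304, 326 and 276 FPKM in WT 500G cells, which did not overlap (-0.26 ± 0.076, limma adjusted p = 0.0504). RPN13 was at 272, 289.6 and 297 FPKM in ulp2 null 500G and 326, 304 and 262.5 FPKM in WT 500G cells, which overlapped (limma adjusted p = 0.742). Under the equal-sum scaling 0 of 34 passed and 11 changed sign, with a median of 0.005 over the 34 and 0.07 over all tested genes. A p above the threshold does not show that the levels were equal: the standard error was 0.056 to 0.13 on the log2 scale.

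Within each strain the proteasome genes were higher after 500 generations than after 50. In ulp2 null cells 28 of 34 genes rose and 2 fell, where 24.5% of all tested genes rose and 29.7% fell (54.1% in either direction), and the median log2 fold change was 0.42, against -0.05 over all tested genes. In WT cells 28 of 34 rose and 0 fell, where 21.4% rose and 19.2% fell (40.6% in either direction), and the median was 0.39, against 0.01 over all tested genes. At an unadjusted p under 0.05, 1 WT gene was lower, RPN4. The 2 comparisons share no library, and 25 genes rose in both, 89.3% of the 28 in ulp2 null and 89.3% of the 28 in WT cells. PRE8, RPN6 and RPN7 passed in ulp2 null cells alone, and PRE7, RPN2 and RPN13 in WT cells alone. Of these 6, the difference between the strains itself passed for RPN7, PRE7 and RPN13. PRE5 and PRE9, which encode alpha subunits, did not pass in either. In ulp2 null cells 29 genes had every 500G library above every 50G library, as in 26.8% of all tested genes, and in WT cells 31 did, as in 27.1%. Of the calls in ulp2 null cells 28 of 30 held without any 1 of the 12 libraries, and of those in WT cells 22 of 28 did. The 6 WT calls that did not were PUP2, RPN10, RPN13, RPN2, RPN9 and UMP1, each lost without at least 3 of the 6 WT libraries in turn.

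This rise depended on which scaling of the libraries was used. Under the median-of-ratios scaling 28 genes rose and 2 fell in ulp2 null cells, with a median of 0.45 over the 34 and -0.02 over all tested genes. In WT cells 29 rose and 1 fell under it, with a median of 0.38 over the 34 and 0.000 over all tested genes. Under the equal-sum scaling 6 genes rose and 6 fell in ulp2 null cells, with a median of 0.05 over the 34 and -0.41 over all tested genes, and 6 rose and 4 fell in WT cells, with a median of 0.02 and -0.34. In ulp2 null cells 7 genes changed sign, of which 4 had been called with the deposited values and 3 were called only under the equal sum. In WT cells 13 did, of which 8 had been called with the deposited values and 2 were called only under the equal sum. Against the median of all tested genes 32 of 34 genes in ulp2 null and 33 of 34 in WT cells were higher, a position that a scaling of whole libraries leaves nearly as it is by construction. The summed share of the 32 subunit genes in all FPKM was 0.692 ± 0.022% in ulp2 null 500G and 0.643 ± 0.0163% in ulp2 null 50G libraries, and 0.711 ± 0.0209% in WT 500G and 0.684 ± 0.0144% in WT 50G libraries (SD, n = 3 each). Their summed level was 9579, 9769 and 9859 FPKM in ulp2 null 500G, 7148 to 7687 FPKM in ulp2 null 50G, 9948, 10589 and 10854 FPKM in WT 500G and 7768 to 7844 FPKM in WT 50G libraries. Which scale holds for the cells was not tested.

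**Figure D3:**
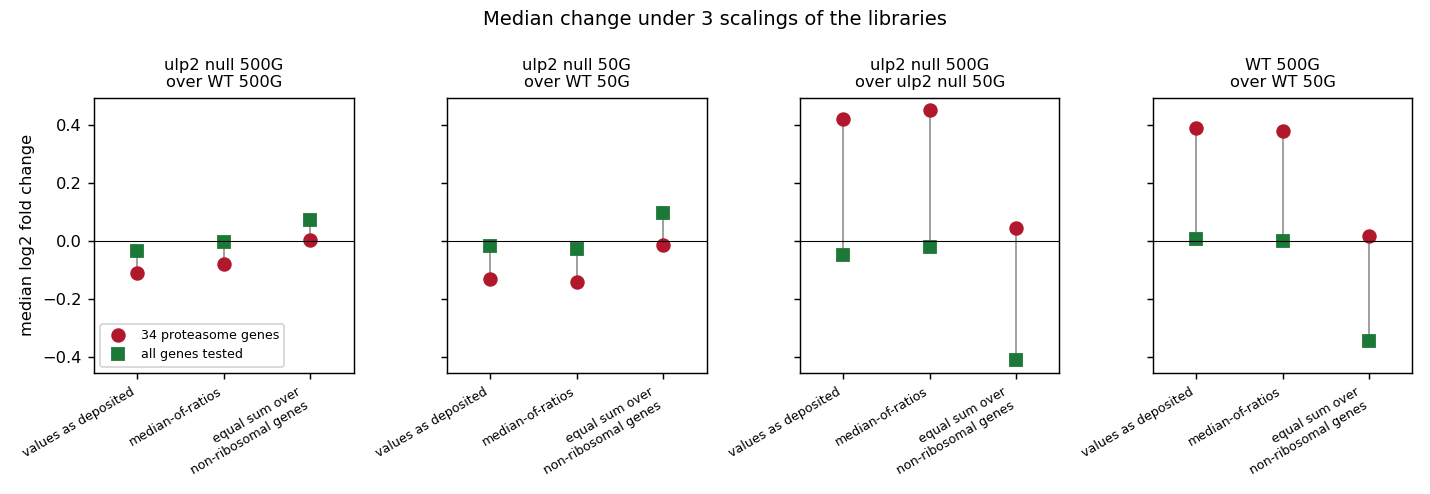
Median log2 fold change over the 34 proteasome genes (circles) and over all genes tested (squares) in 4 comparisons, under the deposited values, a median-of-ratios scaling and an equal sum over non-ribosomal genes. For 500G over 50G the proteasome median is 0.05 in ulp2 null and 0.02 in WT cells under the equal sum, against 0.42 and 0.39 with the deposited values, while the grey line to the median of all genes keeps about the same length, as scaling whole libraries shifts all genes alike.

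In the core particle 11 of 14 genes were higher at 500G than at 50G in each strain. Of all tested genes 24.5% were higher in ulp2 null and 21.4% in WT cells. Among the beta genes, PRE3, which encodes a catalytic subunit, had the largest change. It was at 419, 355 and 356 FPKM in ulp2 null 500G and 238, 245 and 190.3 FPKM in ulp2 null 50G cells (log2 fold change 0.75 ± 0.12, limma adjusted p = 0.000313), and at 444, 399 and 354 FPKM in WT 500G and 267, 249.6 and 244 FPKM in WT 50G cells (0.65 ± 0.12, 0.00134). The 500G libraries were above the 50G libraries of the same strain throughout. The genes of the other catalytic subunits rose too: PRE2 by 0.50 and PUP1 by 0.33 in ulp2 null, and PRE2 by 0.51 and PUP1 by 0.35 in WT cells. PUP1 was the lowest core gene in each group, at 178 ± 8.38 FPKM in ulp2 null 500G, 141 ± 7.19 in ulp2 null 50G, 200.2 ± 6.68 in WT 500G and 157 ± 2.16 FPKM in WT 50G cells (SD, n = 3 each).

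Among the alpha genes PRE10 changed most, with 343, 298.5 and 300.1 FPKM in ulp2 null 500G and 218, 191 and 203 FPKM in ulp2 null 50G cells (0.62 ± 0.097, limma adjusted p = 0.000343). In WT cells it had 388, 342 and 299 FPKM at 500G and 227, 221 and 227 FPKM at 50G (0.60 ± 0.097, 0.000737). Neither pair overlapped. PRE9, the gene of the alpha subunit that yeast can live without, stayed between 236 and 311 FPKM in all 12 libraries, and PRE5 between 261 and 311 FPKM. SCL1, the most abundant alpha gene at 50G, rose by 0.42 in ulp2 null and by 0.41 in WT cells. The PUP2 calls, at an adjusted p of 0.0307 in ulp2 null and 0.0252 in WT cells, were each lost without any 1 of 4 libraries: ulp2 null 500G replicate 1 or 2 and ulp2 null 50G replicate 2 or 3 for the ulp2 null call, and WT 500G replicate 1 or 2 and WT 50G replicate 2 or 3 for the WT call.

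In the base the 6 ATPase genes moved as 1 block. All 6 rose in both strains, by 0.34 to 0.56 on the log2 scale in ulp2 null and by 0.39 to 0.58 in WT cells, and all 6 carry GGTGGCAAA. Of all tested genes 24.5% rose in ulp2 null and 21.4% in WT cells. RPT3 was at 227, 249 and 253 FPKM in ulp2 null 500G and 162, 168 and 171 FPKM in ulp2 null 50G cells, and at 273, 270.4 and 258.5 FPKM in WT 500G and 193, 197 and 197 FPKM in WT 50G cells, with no overlap in either strain. Under the equal-sum scaling the sign of RPT6 turned in ulp2 null cells (-0.03). RPT1 alone passed under every alternative in both strains (limma adjusted p at most 0.0254 in ulp2 null and 0.0168 in WT cells). For the other ATPase genes the highest limma adjusted p over the alternatives was 0.0862 to 0.685 in ulp2 null and 0.198 to 0.834 in WT cells.

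RPN1 rose most of all members in ulp2 null cells. Its level was 418, 355 and 373.5 FPKM in ulp2 null 500G and 193, 164 and 168 FPKM in ulp2 null 50G cells, a log2 fold change of 1.12 ± 0.1 (limma adjusted p = 6.14e-06). The WT level was 478, 427 and 472 FPKM at 500G and 319, 282 and 257 FPKM at 50G (0.69 ± 0.1, 0.000385). The change over passage was thus larger in ulp2 null cells by 0.44 ± 0.14, which passed the test of the difference narrowly (limma interaction, adjusted p = 0.0491, 0.005 to 0.113 over the alternatives). That call held only without WT 50G replicate 3, ulp2 null 50G replicate 1 or ulp2 null 500G replicate 2, and was lost without any 1 of the other 9 libraries. RPN2 was at 259 ± 2.64 FPKM in ulp2 null 500G and 265 ± 17.2 FPKM in ulp2 null 50G cells, and at 284 ± 8.4 FPKM in WT 500G and 251 ± 4.05 FPKM in WT 50G cells (SD, n = 3 each), and passed in WT cells (0.18, limma adjusted p = 0.0367) but not in ulp2 null cells. The difference between the strains did not pass (limma interaction, adjusted p = 0.103).

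RPN13 moved the other way in ulp2 null cells. It fell to 272, 289.6 and 297 FPKM in ulp2 null 500G cells, against 454, 466.5 and 427 FPKM in ulp2 null 50G cells (-0.65 ± 0.085, limma adjusted p = 9.24e-05), within the interquartile range of the tested chromosome XII genes in this comparison, -1.07 to -0.41 (median -0.73). The WT level was 326, 304 and 262.5 FPKM at 500G and 260.5, 234 and 249.7 FPKM at 50G (0.26 ± 0.085, 0.0327). The difference between the strains, -0.91 ± 0.12, passed (limma interaction, adjusted p = 0.000445) and held without any 1 library and under every other alternative that kept chromosome XII. For the chromosome XII genes the median of that difference was -0.69.

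**Figure D4:**
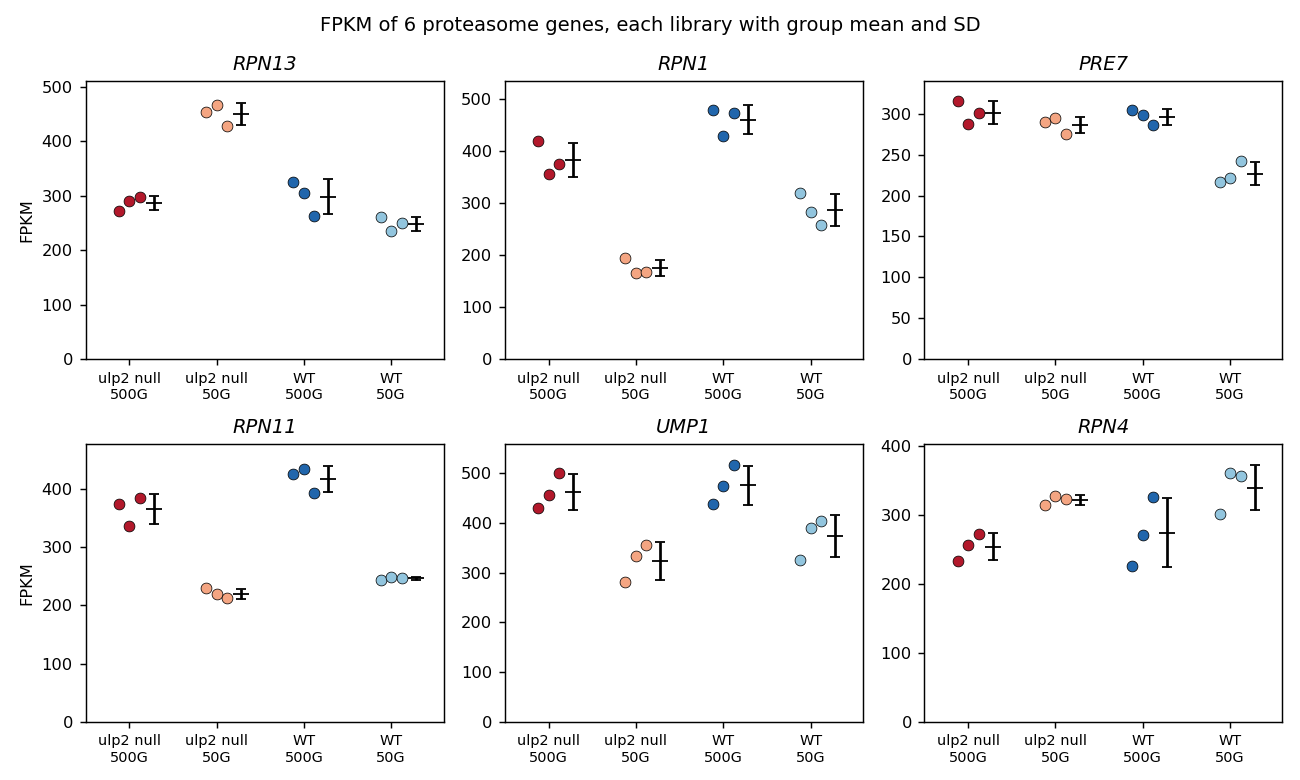
FPKM of RPN13, RPN1, PRE7, RPN11, UMP1 and RPN4 in each of the 12 libraries, with the group mean and SD (n = 3) beside the points; each axis starts at 0. RPN13 is highest and RPN1 lowest in ulp2 null 50G cells, PRE7 is lowest in WT 50G cells, RPN11 and UMP1 are higher at 500G in both strains, and RPN4 is not.

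PRE7 and RPN7 were the other members whose change over passage differed between the strains. PRE7 was at 316, 288 and 301 FPKM in ulp2 null 500G and 291, 294 and 276 FPKM in ulp2 null 50G cells, which overlapped, and at 305, 298 and 286 FPKM in WT 500G and 216, 221 and 243 FPKM in WT 50G cells, which did not. PRE7 had log2 changes of 0.07 (ulp2 null) and 0.39 (WT), and their difference was -0.32 ± 0.093 (limma interaction, adjusted p = 0.032, 0.0147 to 0.073 over the alternatives). RPN7 was at 117, 122 and 129 FPKM in ulp2 null 500G and 96.1, 87.0 and 94.0 FPKM in ulp2 null 50G cells, and at 119, 119 and 115 FPKM in WT 500G and 112, 106 and 109 FPKM in WT 50G cells. Neither pair overlapped, and the difference between 0.41 in ulp2 null and 0.10 in WT cells was 0.30 ± 0.086 (adjusted p = 0.0279, 0.00848 to 0.0895 over the alternatives). The PRE7 call was lost without any 1 of 8 libraries and held without WT 50G replicate 3, WT 500G replicate 3, ulp2 null 50G replicate 3 or ulp2 null 500G replicate 1. The RPN7 call was lost without WT 50G replicate 1 or 3, WT 500G replicate 3, ulp2 null 50G replicate 2 or ulp2 null 500G replicate 3. In all, the interaction of strain and passage passed in 2 genes upward and 2 downward of 34, where 9.74% of all tested genes passed upward and 13% downward.

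The lid genes rose in ulp2 null cells in 8 of 8 and in WT cells in 6 of 8, where 24.5% and 21.4% of all tested genes rose. RPN11, the gene of the deubiquitinating subunit, was at 375, 336 and 385 FPKM in ulp2 null 500G and 229, 219 and 212 FPKM in ulp2 null 50G cells (0.73 ± 0.069, limma adjusted p = 9.35e-06). The WT level was 425, 434 and 392 FPKM at 500G and 244, 249 and 246 FPKM at 50G (0.76 ± 0.069, 1.75e-05), the largest change of a member in WT cells. RPN8, which encodes the partner of Rpn11 and has the looser motif alone, was at 546, 494 and 559 FPKM in ulp2 null 500G and 364, 307 and 289 FPKM in ulp2 null 50G cells, and at 581, 547 and 524 FPKM in WT 500G and 352.5, 338 and 336 FPKM in WT 50G cells, without overlap in either strain. RPN6 rose in ulp2 null cells, to 260.4, 297 and 291 FPKM at 500G against 193.5, 209 and 216 FPKM at 50G (0.45 ± 0.08, 0.000767). In WT cells RPN6 was at 264.5, 311 and 300.2 FPKM at 500G and 259, 276.5 and 268 FPKM at 50G, which overlapped, and its interaction missed the threshold (adjusted p = 0.0597).

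RPN4 did not move with the genes it is known to activate. It was at 232.5, 257 and 272 FPKM in ulp2 null 500G cells, against 313, 326 and 323 FPKM in ulp2 null 50G cells, without overlap, and fell by 0.34 on the log2 scale (SE 0.12, limma adjusted p = 0.0382, 0.00164 to 0.114 over the alternatives). The WT level was 226, 270.1 and 326 FPKM at 500G and 301, 360.5 and 356 FPKM at 50G, which overlapped in 1 library of each, and did not pass (-0.32 ± 0.12, adjusted p = 0.0619, 0.00279 to 0.201). Without WT 500G replicate 3, the highest of its group, the WT call passed, at an adjusted p of 0.00965, and without WT 50G replicate 1 it passed at 0.0405. The ulp2 null call was lost without any 1 of 6 libraries: WT 500G replicate 2, ulp2 null 50G replicate 1, 2 or 3, or ulp2 null 500G replicate 1 or 2. The estimate was below 0 in both strains under each scaling. UMP1 rose in both strains: it was at 430.2, 456.5 and 501 FPKM in ulp2 null 500G and 281, 334 and 355 FPKM in ulp2 null 50G cells (0.52 ± 0.11, limma adjusted p = 0.00293), and at 438, 474 and 516 FPKM in WT 500G and 325, 391 and 405 FPKM in WT 50G cells (0.35 ± 0.11, 0.0298).

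By motif, the 27 genes with GGTGGCAAA held 24 that were higher and 0 that were lower at 500G than at 50G in ulp2 null cells, and 23 that rose and 0 that fell in WT cells, with medians of 0.43 and 0.42. The 7 genes without it held 4 that rose and 2 that fell in ulp2 null cells, and 5 that rose and 0 that fell in WT cells. Of all tested genes 24.5% rose and 29.7% fell in ulp2 null cells, and 21.4% rose and 19.2% fell in WT cells. Between the strains at 50G, 6 of the 27 were lower and 1 higher, and 0 of the 7 lower and 1 higher. Of all tested genes 18.1% were lower and 18.7% higher there. The 7 include RPN4 itself and RPN13 on chromosome XII, and the 27 and the 7 were not tested against each other.

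Set against WT 50G cells, the ulp2 null 500G cells had 22 of 34 genes higher and 1, RPN4, lower, where 16.1% of all tested genes were higher and 17.8% lower, with a median of 0.30 over the 34 and -0.02 over all tested genes. This comparison shares the ulp2 null 500G libraries with the passage comparison of ulp2 null cells and the WT 50G libraries with that of WT cells. RPN8 had the largest change, 0.64 ± 0.09 (limma adjusted p = 0.000422), RPN1 had 0.42 ± 0.1 and RPN13 had 0.21 ± 0.085, which did not pass. In 31 genes every ulp2 null 500G library was above every WT 50G library, as in 21.8% of all tested genes, and in 1, RPN4, below, as in 25.9%. The equal-sum scaling left 3 higher and 2 lower and turned the sign of 10, with a median of 0.05 over the 34 and -0.27 over all tested genes.

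Chaperones of the kind that heat shock factor Hsf1 drives, the other arm of a protein quality response, were mostly higher at 50G. Of 21 such genes 17 were higher and 1, HSP26, lower in ulp2 null cells at 50G, where 18.7% of all tested genes were higher and 18.1% lower. The median log2 fold change was 0.79, against -0.13 for the proteasome genes. Of the 16 outside chromosomes I and XII 12 were higher and 1 lower, with a median of 0.51. SSA4, an inducible Hsp70 gene on chromosome V, had the largest change of the 21 at 50G. It was at 435, 474 and 422 FPKM in ulp2 null 50G cells, against 121.5, 129.5 and 119.5 FPKM in WT 50G cells, and at 66.7, 76.2 and 83.1 FPKM in ulp2 null 500G cells, against 69.5, 72.8 and 95.0 FPKM in WT 500G cells. At 500G against 50G 18 of the 21 fell and 1 rose in ulp2 null cells, and 11 fell and 2 rose in WT cells, where 29.7% of all tested genes fell in ulp2 null and 19.2% in WT cells. The difference between the lists was not tested.

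**Figure D5:**
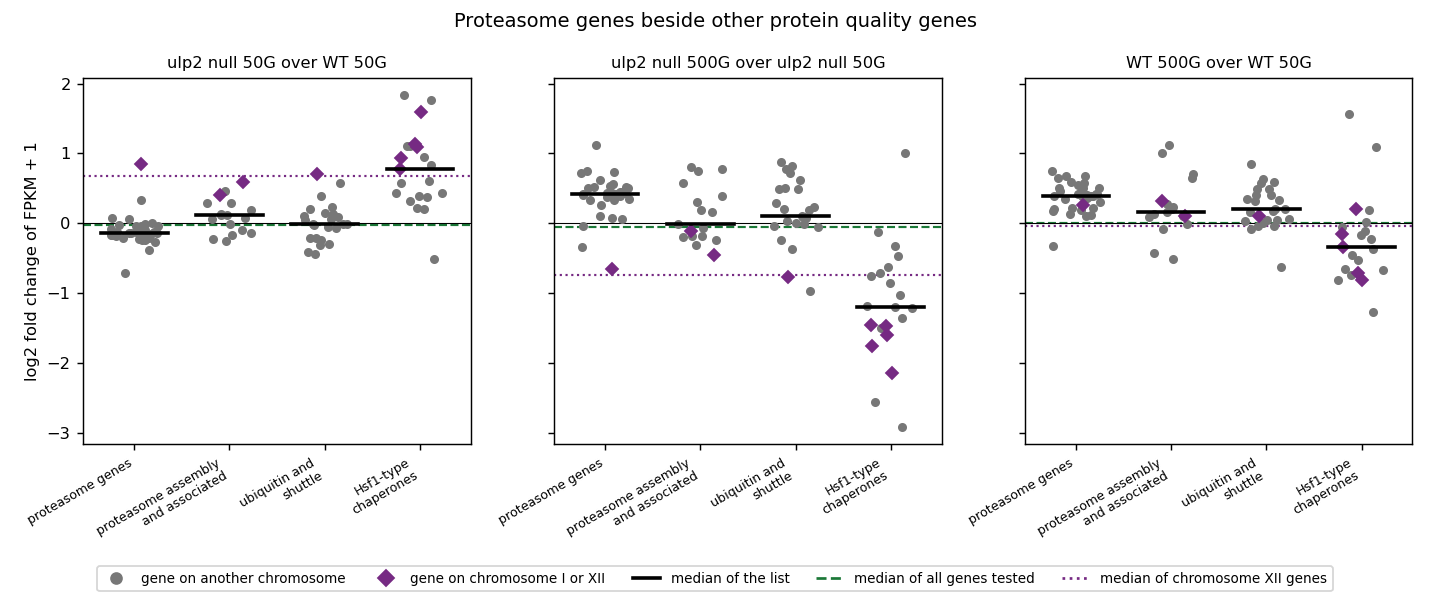
Log2 fold change of FPKM + 1 of each gene of 4 lists in 3 comparisons; diamonds are genes on chromosome I or XII, the thick line is the median of a list, the dashed line that of all genes tested and the dotted line that of chromosome XII genes. In ulp2 null over WT cells at 50G the proteasome genes lie near -0.13 and the chaperones near 0.79, and RPN13 is the 1 diamond among the proteasome genes.

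Of 17 genes of proteasome assembly and associated proteins, 5 were higher and 1 lower in ulp2 null cells at 50G. Outside chromosome XII these were 3 higher and 1 lower of 15, where 18.7% of all tested genes were higher and 18.1% lower, so that the higher share was near that of all genes. The 4 with the lowest adjusted p were IRC25, HUL5, STS1 and PBA1. IRC25 and PBA1, which encode chaperones of the alpha ring, lie on chromosome XII: IRC25 was at 84.3, 96.0 and 95.3 FPKM in ulp2 null 50G and 60.8, 63.2 and 57.9 FPKM in WT 50G cells (0.59 ± 0.079, limma adjusted p = 0.000179), and PBA1 was higher by 0.41 ± 0.09. HUL5, the gene of a ubiquitin ligase that works at the proteasome, and STS1, needed to place proteasomes in the nucleus, lie elsewhere and were higher by 0.47 ± 0.093 and by 0.29 ± 0.059 (limma adjusted p = 0.00241 and 0.00266). The 1 lower gene, UBP6, encodes the deubiquitinating enzyme that docks on Rpn1 and was at 136, 133 and 129 FPKM in ulp2 null 50G and 155, 161 and 157.5 FPKM in WT 50G cells (-0.25 ± 0.069, adjusted p = 0.0147); it was named after its values were seen.

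At 500G against 50G, 5 of the 17 rose and 4 fell in ulp2 null cells, and 7 rose and 1 fell in WT cells. Of all tested genes 24.5% rose and 29.7% fell in ulp2 null cells, and 21.4% rose and 19.2% fell in WT cells. SPG5, which yeast needs for proteasome assembly in stationary phase, passed a 2-fold change in WT cells, at 1174, 1040 and 980.5 FPKM at 500G against 523, 458 and 484 FPKM at 50G (1.12 ± 0.089, limma adjusted p = 6.93e-06). The ulp2 null level was 922, 863 and 901 FPKM at 500G and 576.5, 540.0 and 483 FPKM at 50G (0.75 ± 0.089), and the interaction missed the threshold (adjusted p = 0.0582). BLM10, the gene of an alternative cap of the core, was named after its values were seen: it was at 45.8, 43.5 and 43.6 FPKM in ulp2 null 500G and 28.2, 23.1 and 23.7 FPKM in ulp2 null 50G cells, and at 50.1, 43.6 and 46.5 FPKM in WT 500G and 24.1, 22.4 and 22.1 FPKM in WT 50G cells. The 500G libraries of both genes were above the 50G libraries of the same strain, with log2 fold changes for BLM10 of 0.81 in ulp2 null and 1.00 in WT cells. SPG5, at 458 to 1174 FPKM, thus stood above most of the subunit genes, and BLM10, at 22.1 to 50.1 FPKM, below all of them.

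Of 25 genes of ubiquitin, its enzymes and shuttle proteins, 3 were higher and 4 lower in ulp2 null cells at 50G, no larger shares than the 18.7% and 18.1% of all tested genes. UBI4, the stress-induced polyubiquitin gene, lies on chromosome XII and was at 1073, 1100 and 1108 FPKM in ulp2 null 50G cells, against 645, 670.5 and 692 FPKM in WT 50G cells (0.71 ± 0.063, limma adjusted p = 1.05e-05). UBC4, on chromosome II, encodes a ubiquitin-conjugating enzyme for abnormal proteins and was at 496, 514 and 535 FPKM in ulp2 null 50G and 341, 335 and 359.6 FPKM in WT 50G cells (0.58 ± 0.057, 2.26e-05). The groups of both genes did not overlap. RSP5, an essential ubiquitin ligase gene, and UBP14, whose product takes apart free ubiquitin chains, fell by 0.41 and 0.43 on the log2 scale (limma adjusted p = 0.000497 and 0.00159).

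UBC4 and UBC5, which encode near-identical enzymes, went in opposite directions with passage. Only uniquely mapped reads were kept, so reads that fit both genes alike would not have been counted for either. UBC4 was at 261, 264 and 265 FPKM in ulp2 null 500G and 496, 514 and 535 FPKM in ulp2 null 50G cells (-0.96 ± 0.057, limma adjusted p = 3.08e-07), and at 224, 216 and 233 FPKM in WT 500G and 341, 335 and 359.6 FPKM in WT 50G cells (-0.62 ± 0.057, 1.96e-05). UBC5, named after its values were seen, was higher at 500G by 0.88 ± 0.11 in ulp2 null and by 0.85 ± 0.11 in WT cells. In none of these comparisons did the groups overlap. Over the list, 9 genes rose and 4 fell with passage in ulp2 null cells, where 24.5% of all tested genes rose and 29.7% fell. In WT cells 9 rose and 1 fell, where 21.4% rose and 19.2% fell. These counts, like those of the assembly genes, are on the deposited scale, and under the equal sum the median of all genes stood at -0.41 in ulp2 null and -0.34 in WT cells.

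Of the 6 regulators of RPN4 or of Rpn4, UBR2, on chromosome XII, was the 1 higher and YAP1 the 1 lower in ulp2 null cells at 50G. Both shares were near those of all tested genes, of which 18.7% were higher and 18.1% lower. UBR2 encodes a ubiquitin ligase that marks Rpn4 for degradation and was at 26.1, 22.4 and 21.3 FPKM in ulp2 null 50G and 13.9, 12.7 and 12.9 FPKM in WT 50G cells (0.77 ± 0.088, limma adjusted p = 6e-05). MUB1, the gene of its partner, did not pass (0.18 ± 0.092, adjusted p = 0.161). YAP1 and PDR3, which encode activators of RPN4, had log2 fold changes of -0.26 ± 0.082 and 0.16 ± 0.088 (limma adjusted p = 0.0319 and 0.195). SLX5, SLX8, ULS1 and SMT3 link SUMO to the proteasome. Of these 4 genes 0 passed between ulp2 null and WT cells at 50G by limma, where 36.9% of all tested genes did. At an unadjusted p under 0.05 also 0 of the 4 passed, with log2 fold changes of -0.06 to 0.07. Their standard errors were 0.125 to 0.192, so changes of that size could not be told from spread.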

How the data were processed

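Strand-specific libraries of the 12 cultures were sequenced by the authors, who trimmed the reads, mapped them with TopHat2 2.1.1 and took uniquely mapped reads into Cufflinks 2.2.1 with the Ensembl R64-1-1 annotation. The deposited values are FPKM per gene and sample from Cuffdiff. How libraries were scaled to each other is not given in the sources used here, and the labels name polyA RNA where the methods name total RNA. Columns of the authors' own comparisons were not used. In a check of 66 library pairs, at most 19.9% of low values shared 1 ratio, so no read counts could be recovered and depth is unknown.

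Values were taken as log2(FPKM + 1), genes with a mean under 1 FPKM were left out, and all 4 groups were fitted together in limma 3.58.1 (R 4.3.3) with a variance trend. P-values were adjusted by Benjamini-Hochberg over all genes tested, with a threshold of 0.05. Fold changes on this scale understate those of low genes. The fit was tested on simulated data. Of the gene names, 6048 matched RefSeq R64 by systematic name and 31 by symbol, and 1047 did not match. Promoters were read from that genome, whose name differs from the release of the authors' annotation.

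The genes named are all 34 members and, of each other list, the 4 with the lowest adjusted p in ulp2 null 50G against WT 50G and any gene past a log2 change of 1 in a comparison, with ULP2 as the check of labels. Of the chaperones, SSA4 stands for those past that change and the others are given as counts. The members and lists were chosen with earlier results of these data known. Alternatives were a pseudocount of 0.1, no filter or a mean of at least 10 FPKM, a threshold of 0.01, only the groups compared, a replicate block, 2 other scalings, no trend, chromosomes I and XII left out, and each library left out. Same-numbered libraries deviated together in all 3 replicates only between ulp2 null 500G and WT 50G cells (correlations of 0.141, 0.115 and 0.135 over genes). Replicate 1 also had 0.157 between ulp2 null 500G and WT 500G and 0.122 between WT 500G and WT 50G cells, where replicate 2 had -0.0664 and -0.0163. Single genes could follow replicate number more closely: UMP1 rose from replicate 1 to 3 in each of the 4 groups. No label ties same-numbered libraries to a shared culture or day. No 2 libraries were alike enough to be 1 library deposited again. Figures used matplotlib 3.10.9 under python 3.11.15.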

Additional observations from a re-analysis of the deposited data

Results flagged for a closer look

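The change over passage (500G over 50G) differed between ulp2 null and WT cells in 4 of the 34 genes by limma's interaction term, adjusted over all genes tested. This was no larger share than that of all tested genes, of which 9.74% passed upward and 13% downward (22.7% in either direction). RPN13, on chromosome XII, had a difference, ulp2 null minus WT, of -0.905 ± 0.120 on the log2 scale (SE, limma adjusted p = 0.000445). PRE7 had a difference of -0.315 ± 0.093 (limma adjusted p = 0.032). RPN1 had a difference of 0.436 ± 0.142 (limma adjusted p = 0.0491), and RPN7 of 0.302 ± 0.086 (limma adjusted p = 0.0279). Of these, only the RPN13 call held without any 1 of the 12 libraries.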

How the results depend on the processing

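The scale of the libraries changed most. With an equal sum over genes that do not encode ribosomal proteins, ulp2 null 50G against WT 50G cells gave 4 genes higher and 1 lower with a median of -0.013, and at 500G the median between the strains was 0.005. For 500G over 50G this scaling gave 6 higher and 6 lower with a median of 0.046 in ulp2 null cells, and 6 higher and 4 lower with a median of 0.017 in WT cells. For ulp2 null 500G against WT 50G cells it gave 3 higher and 2 lower with a median of 0.046, and for the interaction 0 upward. It turned the sign for 500G over 50G in ulp2 null cells of PRE9 (-0.315), PRE6 (-0.029), PRE5 (-0.275), PUP1 (-0.042), PRE7 (-0.305), RPT6 (-0.034) and RPN10 (-0.118). In WT cells it turned PRE6 (-0.069), PRE5 (-0.241), PUP1 (-0.023), RPN2 (-0.197), RPN10 (-0.159), RPN13 (-0.117), RPN7 (-0.267), RPN9 (-0.015), RPN12 (-0.16) and UMP1 (-0.021). In ulp2 null 500G against WT 50G cells it turned PUP1 (-0.08), RPN2 (-0.214) and RPN3 (-0.004). These 20 were called with the deposited values (14) or under the equal sum alone (6). Of 174 gene results 65 kept sign and side of the threshold under it, 56 lost the threshold with the same sign, 4 gained it, and 29 more that were called on neither scale changed sign. The median-of-ratios scaling gave 1 lower gene for WT 500G over WT 50G, and 4 upward and 1 downward for the interaction.

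With a replicate block 12 genes were lower at 50G (UMP1 among them, limma adjusted p = 0.00824) and 2 at 500G between the strains, 1 was lower for WT 500G over WT 50G, and 28 were higher and 2 lower for ulp2 null 500G over 50G. In ulp2 null 500G against WT 50G cells the replicate block gave 27 higher and 1 lower, against 22 and 1 without it, and the interaction gave 3 upward and 3 downward. With chromosomes I and XII left out, 1 gene was higher at 50G between the strains, 1 was lower for ulp2 null 500G over 50G, and the interaction gave 1 upward and 1 downward. Between the strains at 500G, 1 gene was lower with a pseudocount of 0.1 and 2 with no filter on low values. At a threshold of 0.01, 1 gene was lower for ulp2 null 500G over 50G and 0 in ulp2 null 500G against WT 50G cells, and the interaction gave 0 upward and 1 downward. Without the variance trend it gave 1 upward.

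Leaving out 1 library at a time gave 0 to 1 lower genes between the strains at 500G, 1 to 2 for ulp2 null 500G over 50G, 0 to 1 for WT 500G over WT 50G and 0 to 1 in ulp2 null 500G against WT 50G cells, and 0 to 2 upward and 1 to 2 downward for the interaction. Of 2088 gene results over these fits 1960 kept sign and side of the threshold, 79 lost the threshold and 24 gained it. The sign changed in 25, and none of these was called in either fit. With 3 libraries a group and no fragment counts, changes near the standard errors of 0.056 to 0.13 could not be told from spread. The cause of these shifts was not tested.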

Other observations

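GGTGGCAAA is not confined to proteasome genes, and the 37 other tested genes that carry it without sharing a member's match were looked at after the data were seen. At 500G against 50G, 16 of the 37 were higher and 5 lower in ulp2 null cells, with a median log2 fold change of 0.23, and 18 were higher and 1 lower in WT cells, with a median of 0.28 (limma, Benjamini-Hochberg over all genes tested). Of all tested genes 24.5% were higher and 29.7% lower in ulp2 null cells, with a median of -0.05. In WT cells 21.4% were higher and 19.2% lower, with a median of 0.01. Between ulp2 null and WT cells at 50G, 9 of the 37 were higher and 10 lower, where 18.7% of all tested genes were higher and 18.1% lower.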
